A study of Mus musculus with 6 samples.

Results

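The proteasome genes described here are the rows of the count table whose symbol starts with Psm, followed by a letter from a to g and a digit. The rule found 46 of the 13024 genes, and all 46 were among the 12879 genes with enough counts to be tested. They comprise 7 genes of the alpha ring and 7 of the constitutive beta ring of the core particle, the inducible beta subunit Psmb10, 6 ATPases and 11 non-ATPase subunits of the regulatory cap, 7 assembly factors and 6 activators or inhibitors. The remaining match, Psmc3ip, carries the name of an ATPase because its protein binds one, and is known as a partner of meiotic recombinases and not as a proteasome subunit. Psma8, Psmb8, Psmb9 and Psmb11 fit the rule but had no row in the count table. The study describes its detected genes as those above a minimum mean expression level in either group. These genes may therefore lack a row because they were at a low level in both groups. Their counts are not available here, so this was not tested.

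RNA-Seq libraries were made from embryonic mouse lenses at E14.5, with 3 pools of control lenses and 3 pools labelled as Gata3 conditional knockout (CKO). Each pool held 10 lenses from 5 embryos of a mixed C57BL/6 and FVB strain, and the libraries held 15157230 to 18811104 counts. CKO embryos were Gata3 f/f with one copy of the Pax6-Cre transgene, which expresses Cre from the Pax6 ocular epithelial enhancer and P0 promoter in precursors of the lens and cornea and removes exon 4 of Gata3. The labels call the controls wild type, while the study describes them as Cre-negative and carrying either 1 or 2 floxed alleles. Cre was present only in the CKO pools, so that the transgene and the loss of Gata3 cannot be told apart.

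Gata3, which encodes the targeted transcription factor, had 202, 386 and 156 counts in controls 1 to 3 and 910, 1064 and 894 counts in the libraries labelled CKO 1 to 3. The gene count was thus higher in the libraries labelled CKO (log2 fold change 1.72, SE 0.40, edgeR quasi-likelihood test with Benjamini-Hochberg adjustment, adjusted p = 0.650), against the direction of a knockout, and a count over the whole gene does not show whether exon 4 was present. Control 2 stood apart from the other libraries: the 16 crystallins took 16.5% of its counts and 5.47% to 9.31% of the counts elsewhere, and the 11 lens fibre genes measured summed to 22497 CPM (counts scaled to a common library size) against 7121 to 10781. All of the crystallin and fibre markers had counts, whereas 4 of the 8 blood genes measured were at 0 in every library. Why these had no counts was not tested, and blood sums rest on the remaining genes. The 12 mesenchyme genes summed to 2324 CPM in control 1 and 4220 CPM in the library labelled CKO 2, and to 265 to 555 CPM in the others. In these bulk pools, fewer cells of a type and less RNA per cell cannot be told apart.

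The proteasome is the protease that degrades ubiquitin-tagged proteins in the cytoplasm and nucleus. Its barrel-shaped core is built from stacked rings of alpha subunits, which form the gate, and of beta subunits, some of which carry the proteolytic sites, while the cap binds ubiquitin chains and uses a ring of ATPases to unfold the substrate and feed it into the core. Lens fibre cells remove their nuclei and organelles as they mature, and the ubiquitin-proteasome pathway is known to act during their differentiation.

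Sequence is shown first for the promoters that contain the core of the antioxidant response element, because the transcription factor Nfe2l1 is known to raise proteasome gene transcription through this element. The window from 250 bases before to 50 bases after the RefSeq start (GRCm38.p6) was available for 39 of the 46 genes, some with more than 1 start, giving 42 windows. The core TGACNNNGC, searched on both strands, occurred in 6 of these 42 windows (14.3%) in 12.4% of the 32851 windows of all genes and in 14.3% of the windows of genes in the count table. The 6 matches are printed with the core in capitals, on the strand where it reads as written.
Psmb5, chr14:54618024-54618052, minus strand: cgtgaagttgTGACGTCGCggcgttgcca
Psmb6, chr11:70525338-70525366, plus strand: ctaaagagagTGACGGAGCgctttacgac
Psmd9, chr5:123228149-123228177, plus strand: atctagccggTGACCCCGCccacttccaa
Psme4, chr11:30771758-30771786, minus strand: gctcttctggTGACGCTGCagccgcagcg
Psmc6, chr14:45329587-45329615, minus strand: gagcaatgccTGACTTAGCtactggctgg
Psmd12, chr11:107479278-107479299, minus strand: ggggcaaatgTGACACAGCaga
Along the gene, the most upstream base of the match lay at -47 from the start in Psmb5, -9 in Psmb6, -31 in Psmd9 and -7 in Psme4. It lay at -227 in Psmc6 and -247 in Psmd12. For Psme4, Psmc6 and Psmd12, printed on the strand opposite to the gene, this is the last base of the core as printed. The motif CCAAT, bound by the NF-Y complex, occurred in 13 of the 42 windows (31.0%) against 37.4% of all windows and 37.9% of those of genes in the count table. A GATA motif (the letters GATA after A or T and before A or G, on either strand) occurred in 5 of the 42 windows (11.9%), against 29.8% of all windows and 18.1% of the windows of genes in the count table. A match is a run of letters and not a measured binding site.

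Sequence also matters for Psme2 and Psme2b, because their messages are nearly the same and reads may be shared between them. Psme2 encodes the beta subunit of an interferon-inducible activator ring and lies at chr14:55587441-55591113 on the minus strand (mm10, GENCODE M21) with 11 exons, whereas Psme2b lies at chr11:48945354-48946190 on the minus strand and has 1 exon. Their coding sequences are 720 bases each and differ at 5 bases (99.3% identity). With positions counted from the A of the start codon and the base of Psme2 given first, the substitutions are C312T, A369G, C489T, C519T and C543T. All 5 fall on the third base of a codon, and the 239 encoded residues do not differ. The first 2 are shown within 29 coding bases, with the differing base in capitals.
Psme2, first difference: cttctggccttgctCgctttggttaagcc
Psme2b, first difference: cttctggccttgctTgctttggttaagcc
Psme2, second difference: attctggtaatcacAtggatccagcacct
Psme2b, second difference: attctggtaatcacGtggatccagcacct

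In the comparison of the libraries labelled CKO with the controls, which asks whether proteasome gene expression differs in lenses made to lose Gata3, none of the 46 proteasome genes passed an adjusted p of 0.05. Log2 fold changes ran from -0.39 for Psmb5 to 0.16 for Psmg1, with 32 genes lower and 14 higher and a median of -0.06, beside a median of 0.00 over all genes tested. This direction rested on control 2, without which the median was 0.04 with 17 genes lower and 29 higher. Library totals in place of TMM factors moved the median of all genes to 0.10 and that of the proteasome genes to 0.05, with 15 lower and 31 higher. Relative to the median of all genes, the proteasome genes lay at -0.06 with TMM (33 of 46 below it), at -0.05 with library totals (31 of 46 below it) and at 0.03 without control 2 (19 of 46 below it).

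The edgeR quasi-likelihood test with Benjamini-Hochberg adjustment gave 0 of 46 proteasome genes and 0 of 12879 genes (0%), with an adjusted p of 0.9998 as the smallest among the 46. At an unadjusted p under 0.05 edgeR gave 0 of 46, against 457 genes in all (3.55%). DESeq2 gave 0 of 46 after adjustment, against 85 genes (0.66%), and 1 of 46, Psmb5, at an unadjusted p under 0.05, against 507 genes (3.94%). The 3 pools of one group lay wholly below those of the other, lower in the libraries labelled CKO, for Psma6, Psmb5 and Psmd6, which is 3 of 46 against 4.69% of all genes, and 0 of 46 were wholly higher against 3.67%. With library totals 1 of 46, Psmd6, was wholly lower against 2.27% of all genes, and 6 of 46 (Psma1, Psmb1, Psmb2, Psmc6, Psmd3 and Psmd8) were wholly higher against 10.9%.

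A p that misses the threshold does not show equal levels, so the 95% intervals are given. They lay within a 2-fold change for all 46 genes and within 1.5-fold for 43. The lowest bound was -0.80 on the log2 scale (Psmb5) and the highest was 0.53 (Psmb10), and the median half-width was 0.26 against 0.32 over all genes tested.

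**Figure D1:**
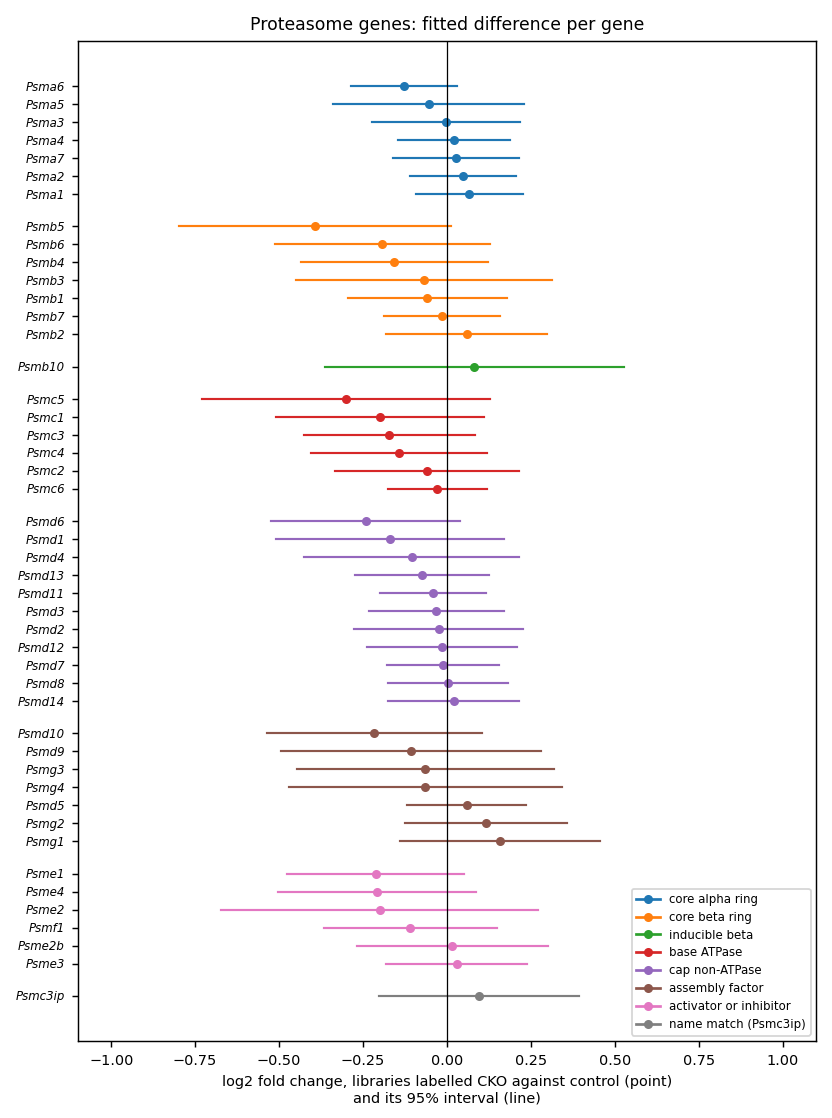
Fitted log2 fold change of each proteasome gene, libraries labelled CKO against control (points), with its 95% interval (lines), grouped and coloured by role. Every interval includes 0, and the points run from -0.39 (Psmb5) to 0.16 (Psmg1).

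The alpha ring had 3 genes lower, 4 higher and a median log2 fold change of 0.02, which was 0.02 above the median of all genes both with TMM and with library totals. Psma6, an alpha subunit (chr12:55384222-55418454, plus strand), had 127, 137 and 126 CPM in controls 1 to 3 and 122, 118 and 117 CPM in the libraries labelled CKO 1 to 3. The groups did not overlap with TMM but did with library totals, and the log2 fold change of -0.13 (SE 0.07) was -0.08 without control 2. Psma7 had 139.6, 148 and 136 CPM in the controls against 135, 141 and 155 CPM, with overlapping groups (log2 fold change 0.03, SE 0.08). For Psma5 the values were 17.7, 18.1 and 15.6 CPM against 15.5, 16.1 and 17.8 CPM, which also overlapped (log2 fold change -0.05, SE 0.12).

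Of the 7 constitutive beta ring genes 6 were lower and 1, Psmb2, was higher, with a median of -0.07. Relative to the median of all genes, 6 of 7 were lower with library totals too (median -0.05), whereas without control 2 there were 3 lower and 4 higher (median 0.03). With TMM all 7 had their highest value in control 2. Psmb5 (chr14:54614119-54618022, minus strand), whose product carries the chymotrypsin-like site, had 42.1, 57.4 and 36.1 CPM in controls 1 to 3 and 34.2, 33.1 and 35.9 CPM in the libraries labelled CKO 1 to 3. The lowest control and the highest library labelled CKO were nearly level, and control 2 was 36.3% above the next library. The log2 fold change of -0.39 (SE 0.17, unadjusted p = 0.0558, adjusted p = 0.9998 in edgeR) was -0.17 without control 2. Psmb6, with the caspase-like site, had 140.0, 183 and 129 CPM against 130.1, 126 and 139.8 CPM (log2 fold change -0.19, SE 0.13), and was -0.02 without control 2. Psmb7, with the trypsin-like site, differed little between groups, at 145 ± 8.58 against 143 ± 5.74 CPM (mean ± SD, n = 3 pools in each group).

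Psmb10, the inducible subunit that takes the place of Psmb7 in the immunoproteasome, was expressed at a low level in all pools. It had 5.45, 6.06 and 5.25 CPM in the controls and 6.68, 5.19 and 5.88 CPM in the libraries labelled CKO, and the groups overlapped (log2 fold change 0.08, SE 0.19). Per kb of transcript it reached 3.31% to 4.15% of the level of Psmb7 across the 6 libraries.

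All 6 ATPases of the cap base were lower, with a median of -0.16. On the TMM scale all 6 were highest in control 2, where the median gene was 1.28 times the mean of the other 5 libraries. Relative to the median of all genes, all 6 were lower with library totals too (median -0.15), and without control 2 there were 4 lower and 2 higher (median -0.03). Psmc5 (chr11:106256154-106263120, plus strand) showed the widest excess of control 2 over the next library among the 46 genes with TMM. It had 169.5, 255 and 160.1 CPM in controls 1 to 3 and 161, 152 and 162 CPM in the libraries labelled CKO 1 to 3. Its log2 fold change was -0.30 (SE 0.18) and -0.05 without control 2, which stood 50.6% above the next library with TMM. The TMM factor of control 2 was 0.869, against 0.998 to 1.05 for the other libraries. A lower factor raises the CPM of every gene in that library, so part of this excess comes from the scaling. Psmc1 had 225, 282 and 198 CPM against 204, 199 and 211 CPM, and its log2 fold change of -0.20 (SE 0.13) was -0.04 without control 2. Psmc6 hardly varied, with 136, 143 and 134 CPM against 136, 133 and 135 CPM (log2 fold change -0.03, SE 0.06).

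Among the 11 non-ATPase cap subunits 9 were lower and 2 higher, with a median of -0.03. Relative to the median of all genes, 10 of 11 were lower with TMM and 9 of 11 with library totals (median -0.02), whereas without control 2 there were 3 lower and 8 higher (median 0.06). Psmd6 (chr14:14112174-14120984, minus strand), a lid subunit, had 129, 162 and 119 CPM in controls 1 to 3, and the libraries labelled CKO 1 to 3 were almost identical at 115, 115 and 116 CPM. The groups did not overlap with either scaling (log2 fold change -0.24, SE 0.12, unadjusted p = 0.0811), and the difference was -0.09 without control 2. Psmd2, the large scaffold of the base, had 392, 460.1 and 371 CPM against 421, 373 and 409 CPM (log2 fold change -0.02, SE 0.11). Psmd11, a lid subunit, had 98.5, 103 and 94.8 CPM against 96.5, 93.9 and 97.7 CPM (log2 fold change -0.04, SE 0.07). The ubiquitin receptor Psmd4 was at 135 ± 25.5 against 126 ± 6.05 CPM, and the deubiquitinase Psmd14 at 93.4 ± 6.29 against 94.7 ± 5.59 CPM.

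The assembly factors divided into 4 lower and 3 higher genes with a median of -0.06. Relative to the median of all genes they were also 4 lower and 3 higher with library totals (median -0.06), and 3 lower and 4 higher without control 2 (median 0.06). Psmg1 and Psmg2, which together form a chaperone of the alpha ring, had the highest log2 fold changes of all 46 genes. Psmg1 was at 23.6 ± 2.76 CPM in controls and 26.3 ± 2.38 CPM in the libraries labelled CKO (log2 fold change 0.16, SE 0.12). Psmg2 had 27.5, 30.5 and 33.7 CPM against 33.6, 31.7 and 34.2 CPM, and the groups overlapped (log2 fold change 0.12, SE 0.10, and 0.06 without control 1). The base chaperone Psmd9 had 27.6, 40.2 and 27.9 CPM against 29.2, 31.6 and 27.9 CPM, so that control 2 alone was high. Its log2 fold change of -0.11 (SE 0.16) was 0.11 without that library.

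Activators and inhibitors had a median of -0.15, with 4 genes lower and 2 higher, and relative to the median of all genes the same counts were found with library totals (median -0.15) and without control 2 (median -0.08). Psme1, the alpha subunit of the interferon-inducible ring, had 48.2, 53.3 and 41.3 CPM in controls 1 to 3 and 38.8, 42.2 and 42.1 CPM in the libraries labelled CKO 1 to 3 (log2 fold change -0.21, SE 0.11, and -0.11 without control 2). Psme4, a nuclear activator that caps the core as a single large chain, had 305, 400.5 and 303 CPM against 305, 289 and 278 CPM (log2 fold change -0.21, SE 0.12), and its difference was -0.05 without control 2. Both genes therefore overlapped between groups. Psme3, which forms the nuclear activator ring, had 147, 175 and 156 CPM against 152, 167 and 167 CPM (log2 fold change 0.03, SE 0.09). Psmf1, known as an inhibitor of the core, had 49.3, 41.1 and 41.8 CPM against 43.8, 37.3 and 41.5 CPM, and its log2 fold change of -0.11 (SE 0.11) was -0.00 without control 1.

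Psme2 had 61 to 92 counts per library and Psme2b 287 to 428 counts, and the split between them is uncertain because of the shared sequence shown above. Psme2 had 5.20, 4.30 and 5.14 CPM in the controls and 4.08, 3.97 and 4.68 CPM in the libraries labelled CKO (log2 fold change -0.20, SE 0.20). For Psme2b, the single-exon gene, the values were 21.2, 21.3 and 18.2 CPM against 18.6, 20.4 and 22.3 CPM (log2 fold change 0.02, SE 0.12). Per kb of transcript Psme2 reached 16.9% to 24.6% of Psme2b and 9.31% to 14.4% of Psme1 across the 6 libraries.

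Psmc3ip, the recombination factor, had 15.4, 12.97 and 16.1 CPM in the controls and 15.8, 15.8 and 15.9 CPM in the libraries labelled CKO (log2 fold change 0.09, SE 0.13, and 0.02 without control 2), and the groups overlapped. It was the 1 gene of the 46 with its lowest value in control 2, where 4064 of the 12879 genes tested had theirs.

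Control 2 held many of the highest values. Of the 46 genes 30 had their highest value there (65.2%), against 31.6% of all genes tested. With library totals these numbers were 13 of 46 (28.3%) against 11.4% of all genes, so that both the count and the background depended on the scaling. With TMM these were 7 of 7 beta ring genes, 6 of 6 ATPases and 10 of 11 non-ATPase cap subunits, 2 of 7 alpha ring genes and 2 of 7 assembly factors. With library totals they were 3 of 7 beta ring genes, 4 of 6 ATPases, 3 of 11 non-ATPase cap subunits, 0 of 7 alpha ring genes and 2 of 7 assembly factors, and no difference between roles was tested. With TMM the lowest value fell most often in control 3 (18 genes) and in the library labelled CKO 2 (12 genes). No share over all genes stands beside these counts, so they do not show a trait of the proteasome genes. The control pools were also more spread on the TMM scale. There the SD was larger among controls for 37 of the 46 genes (80.4%) and for 70.7% of all genes tested. The median coefficient of variation was 10.3% in controls and 4.56% in the libraries labelled CKO. No spread per gene is given with library totals. The summed share of all counts had an SD of 0.0118 points in controls and 0.0153 points in the libraries labelled CKO. Control 2 also had the most crystallin and fibre counts, as given above. Its 8 blood genes, of which 4 were at 0 in every library, summed to 1321 CPM against 313 to 553 CPM elsewhere. Its sums were the lowest for the 12 retina genes (1050.4 CPM against 1651 to 2547 CPM) and the 8 proliferation genes (1819 CPM against 2119 to 2511 CPM). The part of these in the pattern was not tested.

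**Figure D2:**
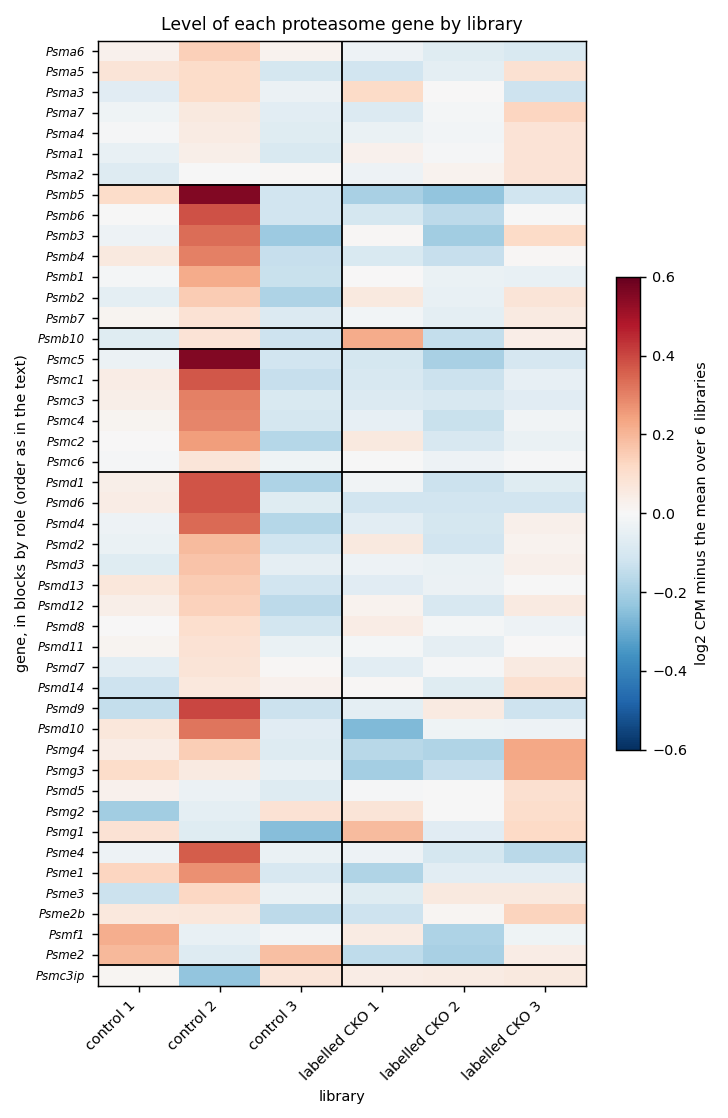
Log2 CPM of each of the 46 genes in each library minus the gene's mean over the 6 libraries, in blocks by role in the order of the text, with red above and blue below the mean. Control 2 is the reddest column in the beta ring, ATPase and cap blocks, and is blue for Psmc3ip, on the TMM scale.

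Ratios of summed counts within a library do not depend on the scaling. The ATPases summed to 1.52, 1.77 and 1.41 times the alpha ring in controls 1 to 3 and to 1.44, 1.38 and 1.39 times in the libraries labelled CKO 1 to 3. The beta ring summed to 1.099, 1.23 and 1.01 times the alpha ring in the controls and to 1.05, 1.01 and 1.05 times in the others. In both ratios control 2 was highest, control 1 lay above the libraries labelled CKO, and control 3 lay within their range. The assembly factors kept a narrow ratio, between 0.271 and 0.282 in all 6 libraries. The sum of the activators and inhibitors was mostly Psme4 and Psme3, with 305 and 147 of 575 CPM in control 1. Each of these genes overlapped between groups on its own with TMM. For the activators and inhibitors the ratio was 0.838, 0.951 and 0.832 in the controls and 0.814, 0.810 and 0.772 in the libraries labelled CKO. The groups did not overlap for this ratio. Psmb5 was 6.14%, 7.85% and 5.31% of the alpha ring sum in the controls against 4.94%, 4.79% and 4.98%, also without overlap. Psmc5 was 24.7%, 34.9% and 23.6% against 23.3%, 21.9% and 22.5%, again without overlap. These ratios were chosen after the data were seen, have no share over all genes beside them, and were not tested.

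**Figure D3:**
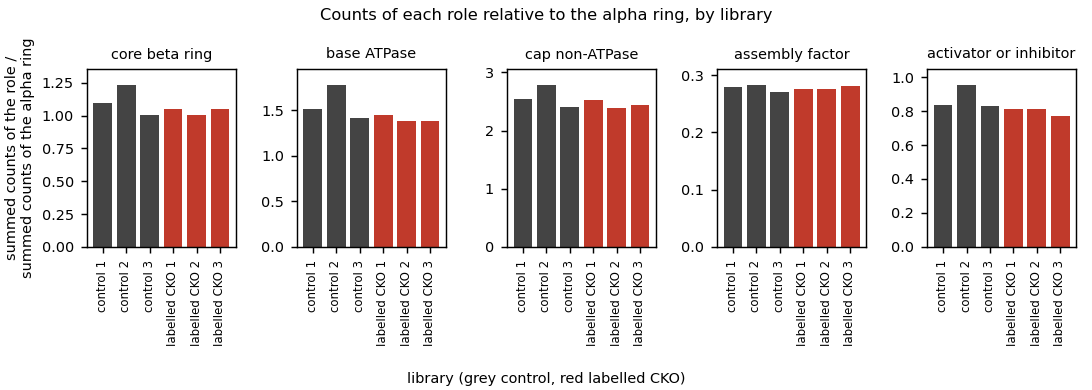
Summed counts of each role divided by the summed counts of the 7 alpha ring genes in the same library, with grey bars for controls and red bars for the libraries labelled CKO, on axes that start at 0. Control 2 is highest in the beta ring (1.23), ATPase (1.77), cap (2.78) and activator (0.951) panels, and the assembly factors stay between 0.271 and 0.282.

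Together the 46 genes took 0.500%, 0.511% and 0.487% of the counts in controls 1 to 3 and 0.502%, 0.498% and 0.526% in the libraries labelled CKO 1 to 3. The mean was 0.00954 percentage points higher in the libraries labelled CKO. With the crystallins taken out of the total, the shares were 0.551%, 0.611% and 0.522% against 0.541%, 0.530% and 0.557%, and the difference turned to -0.0188 points. The first difference was smaller than the SD between pools in either group, and the second was smaller than the SD of the controls only. The SD was 0.0118 and 0.0153 points for the first share and 0.0456 and 0.0135 points for the second, in controls and in the libraries labelled CKO.

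Levels of different genes were compared as CPM per kb of the principal transcript, averaged over the 6 libraries. The 31 core and cap subunits had a median of 88.8 CPM per kb and ran from 13.6 for Psma5 to 177 for Psmb6. Assembly factors were lower, from 11.8 for Psmd9 to 30.1 for Psmg2, and activators and inhibitors ran from 4.74 for Psme2 to 60.4 for Psme3. Psmb10 was at 4.39 CPM per kb of transcript, the lowest of the 46 genes on that scale. Within the ATPases, the level per kb ran from 61.0 for Psmc6 to 138 for Psmc1, and within the non-ATPase cap from 59.9 for Psmd11 to 137 for Psmd2.

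The order depends on the length used. Psma2 and Psma3 have long transcripts and stood at 35.6 and 24.0 CPM per kb, but at 147 and 89.1 CPM per kb of coding sequence, inside the range of the other subunits. Psma5 was the lowest of the 31 core and cap subunits on both scales, with 23.1 CPM per coding kb, whereas the highest was Psmb4 on the coding scale at 216. Psmd9, the lowest assembly factor per kb of transcript, was the highest per coding kb at 45.9, and Psme2 at 6.33 per coding kb lay below Psmb10 at 6.996. Near-identical copies were sought among the annotated transcripts of other genes and not in the genome sequence. Copies of at least 95% identity over at least 50% of the transcript were found for 9 of the 46 genes, mostly processed pseudogenes. Reads shared with a copy may be missing from the count. The 7 subunits with a copy (Psma4, Psma5, Psmb3, Psmb5, Psmc1, Psmd2 and Psmd11) had a median of 59.9 CPM per kb and ranged from 13.6 to 138. The 24 with none found had a median of 89.8 and ranged from 24.0 to 177. The coding sequence is 705 of 2911 transcript bases in Psma2 and 768 of 2846 in Psma3, so a copy of it alone could not reach 50%. Which genes count as having a copy thus depends on transcript length, and the 2 medians do not show an effect of copies. The part of the copies in the low values of Psma5 and Psmb5 was not tested.

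**Figure D4:**
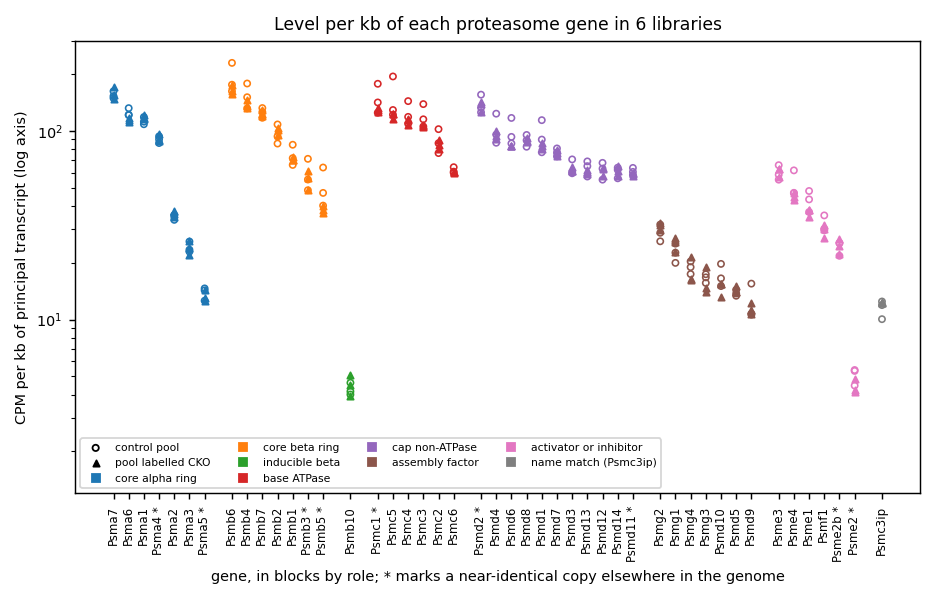
CPM per kb of principal transcript in each of the 6 libraries on a log axis, with open circles for control pools and triangles for pools labelled CKO, grouped by role and sorted by level. An asterisk marks a near-identical copy among the annotated transcripts of other genes. On average over libraries most core and cap subunits lie between 59.9 and 177, with the assembly factors below them and Psmb10 and Psme2 lowest.

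The 57 pathway genes outside the naming rule were described in the same fit, with 39 lower, 18 higher and a median log2 fold change of -0.03. With TMM, 34 of the 57 had their highest value in control 2, against 31.6% of all genes tested. None of the 57 passed in edgeR after adjustment, 1 had an unadjusted p under 0.05, and DESeq2 called 1 after adjustment, which was Nlrc5 in both. Of the 8 partner subunits and assembly proteins 5 were lower and 3 higher. The ubiquitin receptor Adrm1 had a log2 fold change of -0.06 (SE 0.13), the small cap subunit Sem1 -0.15 (SE 0.11) and the core maturation factor Pomp -0.16 (SE 0.13). Pomp also had its highest value in control 2, at 129.6 CPM against 92.4 to 98.1 CPM elsewhere.

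Of the 11 regulators of proteasome genes 10 were lower and 1 higher, with a median of -0.05. Over all 12879 genes tested, 6364 were lower and 6515 higher. Control 2 held the highest value of 8 of the 11 regulators, and no count without that library is given for them. Nfe2l1, the activator named above, had 205, 266 and 200.02 CPM in controls 1 to 3 and 225, 229 and 215 CPM in the libraries labelled CKO 1 to 3 (log2 fold change -0.00, SE 0.12). Its relative Nfe2l2, which drives the oxidative stress response, had 51.0, 68.8 and 44.6 CPM against 52.3, 52.5 and 48.4 CPM (log2 fold change -0.10, SE 0.16). Both were highest in control 2 and overlapped between the groups. Substrate delivery factors numbered 10 lower and 5 higher, and the ubiquitin and E1 genes 5 lower and 3 higher.

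The 15 genes of the interferon and MHC class I list, which is the setting in which Psmb10, Psme1 and Psme2 are induced, had 9 lower and 6 higher. Nlrc5, an activator of MHC class I genes, had 12.5, 28.6 and 10.4 CPM in controls 1 to 3 and 0.713, 0.153 and 0.208 CPM in the libraries labelled CKO 1 to 3 (log2 fold change -5.63, SE 0.68, edgeR adjusted p = 0.322). The 2 groups were far apart for Nlrc5, while Psmb10 overlapped between them, as given above. Irf1, an interferon-responsive activator, had 4.18, 3.38 and 4.30 CPM against 4.67, 5.29 and 4.53 CPM, with groups apart (log2 fold change 0.29, SE 0.21). It had only 48 to 104 counts per library. With TMM, 6 of the 57 pathway genes were wholly lower in the libraries labelled CKO, against 4.69% of all genes tested. Wholly higher were 2 of the 57, against 3.67%.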

How the data were processed

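RNA-Seq counts from 3 control and 3 CKO pools were used. The authors trimmed reads with Trim Galore, aligned them to mm10 with TopHat2 2.0.13 and counted fragments per RefSeq gene with HTSeq 0.6.1, per the submitters' processing notes and the study's methods, and deposited these whole-number counts for 13024 genes; Cuffdiff 2.2.1 and DESeq2 are also named there. How HTSeq treated strand and overlapping genes is not given in the sources used here. Titles number the CKO libraries 1 to 3 and descriptions 2 to 4; the title numbers are used. The pools are separate sets of embryos.

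The table was limited to genes reaching 10 counts in 3 or more libraries and scaled by TMM. The robust quasi-likelihood test of edgeR 4.0.16, run in R 4.3.3, was applied to it, and p-values were adjusted by Benjamini-Hochberg over all genes tested with a threshold of 0.05. CPM were computed on the TMM-scaled library size. The test was tried on simulated data. Libraries held 15157230 to 18811104 counts. An exact permutation test of 3 against 3 cannot go below p = 0.1 and was not used. Alternatives were DESeq2 1.42.0, voom in limma 3.58.1, other scalings, filters, a replicate block and each library left out. Symbols were matched to GENCODE M21 (GRCm38), 12787 directly and 176 by synonym, with 61 unmatched and all 46 proteasome genes matched. Copies were sought with BLAST+ 2.17.0 among the GENCODE M21 transcripts, and plots were made with matplotlib 3.10.9.

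The proteasome genes and the pathway lists were chosen with earlier results of these data known. Full statistics were given for the 3 genes with the lowest p, the highest and lowest per kb in each role, genes whose groups did not overlap, Psmb10, Psme1 to Psme4, Psmf1 and Psmc3ip, and for the pathway genes named; other proteasome genes were named for contrast, among them Psmc5, which was chosen after its values were seen. Levels per coding kb, ratios to the alpha ring, promoter motifs, values relative to the median of all genes, and the overlap of groups and the highest library on library totals were also added after the data were seen.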

Additional observations from a re-analysis of the deposited data

How the results depend on the processing

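No proteasome gene passed an adjusted p of 0.05 under any of the 14 alternatives (0 in each). The median log2 fold change of the proteasome genes stayed negative except with library totals (0.0546, where all genes moved too) and without control 2, and ranged from -0.113 to 0.0361 when 1 library was left out. The highest of these came without control 2 and the lowest without control 3, where 8 of the 46 genes had an unadjusted p under 0.05 (Psmb4, Psmb5, Psmc1, Psmc3, Psmc5, Psmd1, Psmd6 and Psme1) against 0 with all libraries, and 1234 of all genes did against 457. Of 266 values for 19 named genes, 252 kept their direction and 11 genes never turned. With library totals the log2 fold change turned to 0.0537 for Psma5, 0.0773 for Psmc6, 0.0645 for Psmd11, 0.0873 for Psmd2 and 0.0134 for Psmd9, all below the median of all genes there (0.103). With 1 library left out, it ranged from -0.0488 to 0.0126 for Psmc6, from -0.0714 to 0.00188 for Psmd11, from -0.0888 to 0.0811 for Psmd2 and from -0.196 to 0.105 for Psmd9, with the highest value of each without control 2 (Psmd2 also turned without CKO 2, to 0.0245). It ranged from -0.0338 (without CKO 3) to 0.0720 for Psma7, which was also below 0 without control 3, from -0.0129 (without CKO 1) to 0.168 for Psmb10 and from -0.0112 (without control 1) to 0.113 for Psme3. The difference in summed share was -0.0188 points with the crystallins left out of the total, and 0.000784 to 0.0152 points with 1 library left out. Of the 57 pathway genes 1 passed in DESeq2 and 0 when 1 library was left out in edgeR. Deviations of same-numbered pools from their group means had correlations of -0.52, 0.09 and 0.50. Control 1 and CKO 2, which do not share a number, reached 0.59, so these values do not decide whether the numbers pair the pools. With a replicate block in edgeR the median was -0.05, 0 proteasome genes passed, and 516 of all genes had an unadjusted p under 0.05. The cause of these changes was not tested. Depth limits Psmb10 and Psme2 most among the 46 genes, with 61 to 113 counts per library.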
